A study of Mus musculus with 15 samples.

Results

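Mitosis and spindle genes were followed as a module of 50 genes in cultured mouse CD4 T cells. The members are a list of gene symbols that covers the machinery of cell division, and each symbol matched 1 of the 55421 Ensembl gene IDs in the expression table. Levels are in TPM, which divides reads by transcript length and scales each library to the same total. All 50 members passed the filter of at least 1 TPM in at least 3 of the 15 libraries, which left 12800 genes for testing.

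The 15 poly(A) RNA-seq libraries fall into 5 groups of 3, all harvested on day 5. They are wild-type Treg cultures with Srci1, wild-type Treg cultures with DMSO, wild-type TH17 cultures with Srci1, TH17 cultures of the genotype STAT3-fl/fl CD4-cre with DMSO (the STAT3 knockout below) and wild-type TH17 cultures with DMSO. All cultures began with naive CD4 T cells sorted from mouse spleen and lymph node and were stimulated through CD3 and CD28, with antibodies against IFNγ and IL-4 in the medium. TH17 medium held TGFβ at 2.5 ng/ml, IL-1β, IL-6 and IL-23, and Treg medium held IL-2 and TGFβ at 0.5 ng/ml or another indicated dose, so a comparison of Treg with TH17 cells is also a comparison of media. Srci1, a compound given only by this code name, went into the wells 24 h after the cells were plated, and its dose is not stated in the labels. Cre driven by Cd4 acts during T cell development in the thymus, so the deletion precedes the cultures, whereas Srci1 was present only in culture. The labels give no age for the mice. They also do not say that replicates are separate mice or cultures, and the p-values therefore rest on a spread between libraries that may be technical.

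Cell division runs on kinases and on the physical apparatus they control. CDK1 bound to cyclin A or cyclin B drives entry into mitosis, Polo and Aurora kinases build the spindle, kinesin motors move along it, and kinetochores attach chromosomes to it. The spindle checkpoint holds back the anaphase-promoting complex (APC/C), a ubiquitin ligase, until every kinetochore is attached, after which sister chromatids separate and the midzone proteins divide the cell. Transcripts of many of these genes build up in the G2 and M phases of the cell cycle, under FOXM1 and the B-MYB and MuvB complex, and are repressed in resting cells. Naive T cells are quiescent and divide rapidly once their receptor is engaged, which makes this transcript set a common readout of cycling T cells.

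Promoters of such genes are known for the cell cycle genes homology region (CHR), with the letters TTTGAA, to which MuvB binds, and for the CCAAT box, which binds NF-Y. Windows from 250 bases before to 50 bases after the annotated start, taken from RefSeq on GRCm38.p6, were found for 41 members, 44 windows in all since some members have more than 1. No window was in the table for Foxm1, Aurkb, Incenp, Cdc25c, Ccna2, Spc24, Tpx2, Smc4 and Kif20a. On either strand, TTTGAA lay in the windows of 29 of the 41 members (70.7%), against 20.2% of the 27025 genes in the table. CCAAT lay in 28 members (68.3%), against 41.1% of all genes, and both motifs shared a window in 24 members (58.5%), against 7.97% of all genes. An E2F-type motif, searched as TTTGGCGC, TTTCCCGC, TTTCGCGC or TTTGCCGC, lay in 5 members (12.2%), against 2.6% of all genes. Counted in 1 window per member, since overlapping windows of Bub3, Ect2 and Prc1 hold the same sites, 38 TTTGAA matches were found, of which 28 began within 50 bases of the start site, and of 61 CCAAT matches 40 began in the 100 bases before it. A TTTGAA and a CCAAT match overlapped in 1 case, in the window of Cdca8.

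Windows of 6 members are printed 5′ to 3′ on the strand of the gene, with TTTGAA and CCAAT matches on either strand in capitals. Cdk1, Ccnb2, Cdc20 and Plk1 stand for members that were higher in every comparison with wild-type DMSO TH17 cells. Pttg1, with neither motif in its window, is the member that was lower in the STAT3 knockout. Its window lies inside the gene as annotated by GENCODE M21 (chr11:43420250-43426251), so bases before that 5′ end were not searched. Kif20b, with adjoining TTTGAA matches and no CCAAT, had the largest change with Srci1 in Treg cells but was not called in TH17 cells. The last 2 were chosen after their values were seen. The windows lie at chr10:69352863-69353162 (minus strand) for Cdk1, chr9:70421505-70421804 (minus strand) for Ccnb2, chr4:118437294-118437593 (minus strand) for Cdc20, chr7:122159185-122159484 (plus strand) for Plk1, chr11:43425932-43426231 (minus strand) for Pttg1 and chr19:34922108-34922407 (plus strand) for Kif20b.
Cdk1: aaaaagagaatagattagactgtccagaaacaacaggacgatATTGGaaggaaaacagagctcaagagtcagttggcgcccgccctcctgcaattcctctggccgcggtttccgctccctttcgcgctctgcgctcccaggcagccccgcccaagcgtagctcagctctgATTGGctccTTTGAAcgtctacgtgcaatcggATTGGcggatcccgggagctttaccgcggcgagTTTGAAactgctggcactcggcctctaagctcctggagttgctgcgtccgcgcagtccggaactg
Ccnb2: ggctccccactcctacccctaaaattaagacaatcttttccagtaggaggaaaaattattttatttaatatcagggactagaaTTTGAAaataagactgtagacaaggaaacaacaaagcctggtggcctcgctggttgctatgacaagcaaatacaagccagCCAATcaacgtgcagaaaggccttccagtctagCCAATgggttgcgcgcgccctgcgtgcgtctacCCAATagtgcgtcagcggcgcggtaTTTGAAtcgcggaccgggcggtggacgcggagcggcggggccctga
Cdc20: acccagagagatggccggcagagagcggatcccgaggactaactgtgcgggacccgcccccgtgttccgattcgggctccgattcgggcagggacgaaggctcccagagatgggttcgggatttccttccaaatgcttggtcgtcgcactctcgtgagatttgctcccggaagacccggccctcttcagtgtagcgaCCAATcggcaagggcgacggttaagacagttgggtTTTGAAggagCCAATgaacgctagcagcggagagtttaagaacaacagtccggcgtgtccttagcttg
Plk1: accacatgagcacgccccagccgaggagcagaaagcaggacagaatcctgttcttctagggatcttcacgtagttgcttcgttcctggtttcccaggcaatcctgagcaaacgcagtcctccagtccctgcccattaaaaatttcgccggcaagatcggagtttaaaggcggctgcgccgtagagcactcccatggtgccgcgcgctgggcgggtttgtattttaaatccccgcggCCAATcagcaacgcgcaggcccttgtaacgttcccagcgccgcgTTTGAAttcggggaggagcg
Pttg1: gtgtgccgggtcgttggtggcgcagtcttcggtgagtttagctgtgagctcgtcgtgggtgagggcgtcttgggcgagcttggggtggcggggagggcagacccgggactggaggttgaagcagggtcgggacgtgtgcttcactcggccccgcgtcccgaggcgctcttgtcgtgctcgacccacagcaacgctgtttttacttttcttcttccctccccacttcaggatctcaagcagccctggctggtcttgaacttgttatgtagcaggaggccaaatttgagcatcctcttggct
Kif20b: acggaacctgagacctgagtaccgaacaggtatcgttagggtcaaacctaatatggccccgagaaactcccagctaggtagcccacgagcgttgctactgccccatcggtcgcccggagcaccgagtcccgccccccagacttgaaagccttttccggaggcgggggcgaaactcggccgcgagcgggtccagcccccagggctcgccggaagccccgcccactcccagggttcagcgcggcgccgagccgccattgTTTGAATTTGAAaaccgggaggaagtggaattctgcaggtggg

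A motif match is a description of the letters and no measure of binding. Among the 41 members, the median log2 fold change with Srci1 in TH17 cells was 0.94 for the 29 with TTTGAA and 0.87 for the 12 without. In the knockout both medians were 0.64. With Srci1 in Treg cells the medians were 0.57 with the motif and 0.52 without it, and for Treg against TH17 cells in DMSO they were 0.99 and 0.84. For Srci1-treated against knockout TH17 cells the order was the other way, 0.15 with the motif and 0.32 without it, and for the Srci1 response of TH17 minus Treg cells the medians were 0.37 and 0.30.

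**Figure D1:**
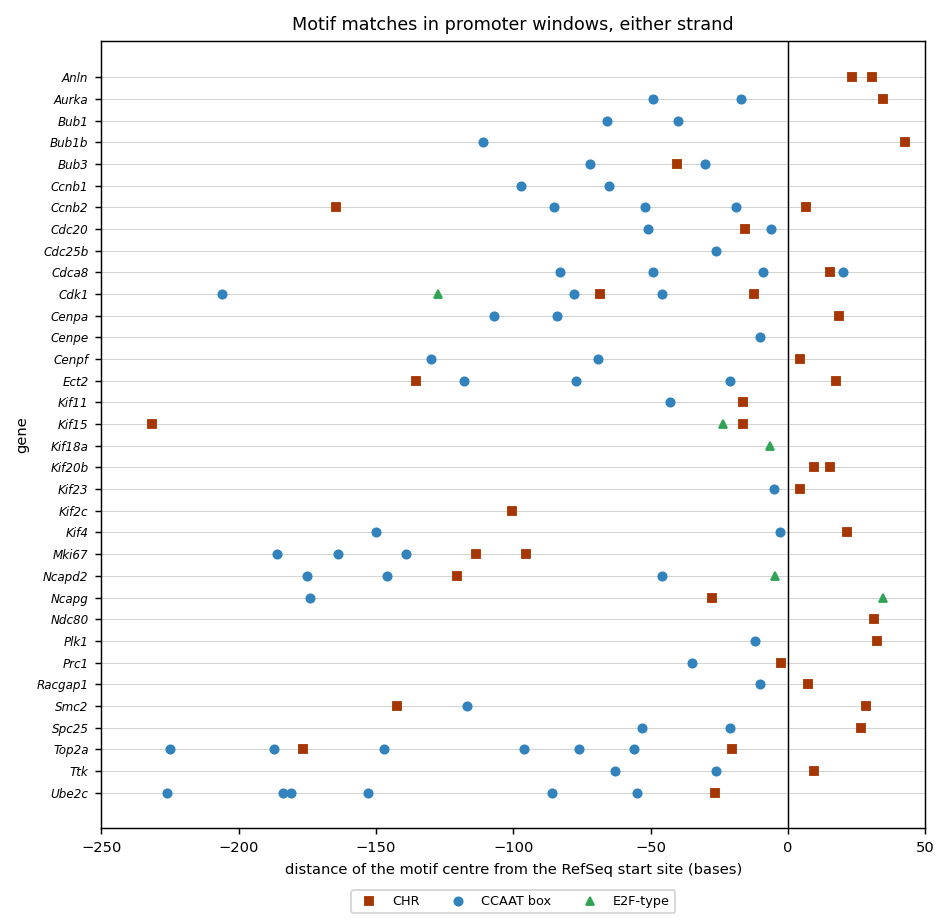
Positions of TTTGAA (CHR, squares), CCAAT (circles) and E2F-type matches (triangles) in 1 promoter window for each of the 34 members that hold at least 1 match, with the distance in bases from the RefSeq start site on the horizontal axis and genes down the page. Most CHR matches lie within 50 bases of the start and most CCAAT matches in the 100 bases before it.

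Taken as a sum, the 50 members made up 6141, 6239 and 6379 TPM in Treg cells with Srci1 and 4503, 4469 and 4548 TPM in Treg cells with DMSO. The sums were 4703, 4374 and 4436 TPM in TH17 cells with Srci1, 3827, 4061 and 3843 TPM in the STAT3 knockout and 2552, 2432 and 2307 TPM in wild-type TH17 cells with DMSO. The 3 wild-type DMSO TH17 libraries thus held the least of these transcripts and the 3 Srci1-treated Treg libraries the most. In bulk samples a smaller share of dividing cells and less of a transcript per cell cannot be told apart. Treg cells with Srci1 had the highest group mean for 47 members, TH17 cells with Srci1 for Cdc25b and Cdc25c, and Treg cells with DMSO for Pttg1. Wild-type DMSO TH17 cells had the lowest mean for 48 members, and the knockout for Cdc25b and Pttg1. All 3 wild-type DMSO TH17 libraries lay below the other 12 for 38 members, which was so for 13.3% of the 12800 tested genes. All 3 Srci1-treated Treg libraries lay above the other 12 for 43 members, against 10.6% of tested genes.

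**Figure D2:**
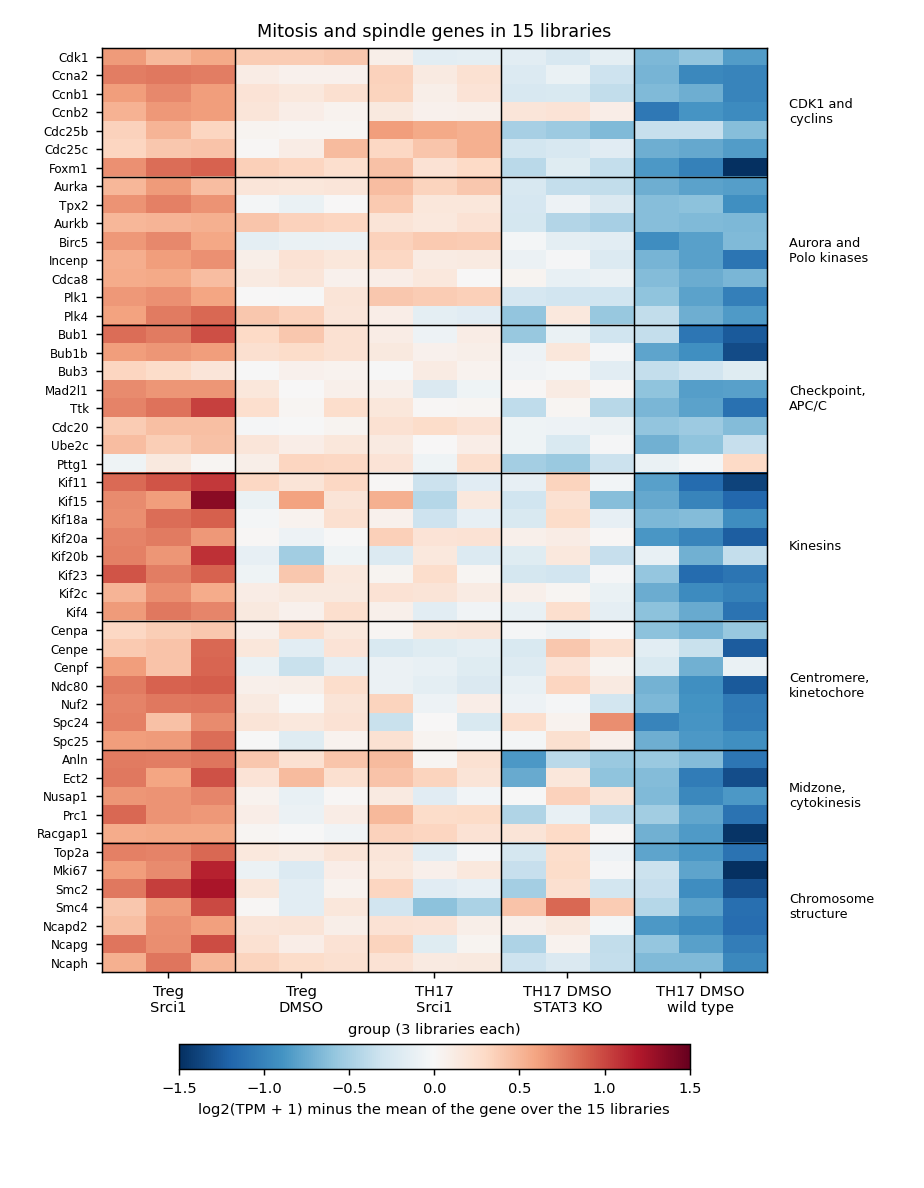
Level of each of the 50 members in each of the 15 libraries, as log2(TPM + 1) minus the mean of that gene over the 15 libraries, with genes ordered by role and groups separated by vertical lines. Wild-type DMSO TH17 libraries at the right are low (blue) for 48 members by group mean, Srci1-treated Treg libraries at the left are high (red) for 47, and Pttg1 follows neither.

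Across the 15 libraries the median Pearson correlation of the 1225 pairs of members was 0.886 on the log2(TPM + 1) scale, with a range of -0.458 to 0.994. These pairs share the same 15 libraries and group differences, and after group means were removed the median was 0.356. Pttg1, which encodes securin, an inhibitor of separase, had a correlation of 0.08 with the mean of the other 49 members. The next lowest were Cdc25b at 0.69, Smc4 at 0.71, Cenpf at 0.74 and Kif20b at 0.76, and the highest reached 0.99.

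Over all tested genes, libraries of a group correlated at 0.977 to 0.986 and libraries of different groups at 0.902 to 0.97. Ribosomal protein transcripts took up 20.9% ± 0.494 of TPM in Treg cells with Srci1, 25% ± 0.165 in Treg cells with DMSO, 22.1% ± 0.583 in TH17 cells with Srci1, 28.7% ± 1.22 in the knockout and 28.4% ± 1.96 in wild-type DMSO TH17 cells (SD, n = 3 each). Mitochondrial transcripts took up 4.96% ± 0.478, 3.54% ± 0.129, 4.46% ± 0.25, 4.25% ± 0.477 and 3.74% ± 0.541 in the same groups. With Srci1 this share did not overlap that with DMSO in Treg cells (4.52% to 5.47% against 3.39% to 3.62%), and in TH17 cells it did (4.26% to 4.74% against 3.34% to 4.36%), and its part in the members' levels was not tested beyond the rescaling named next. Since TPM is a share, a smaller ribosomal protein share leaves more TPM for other genes, and its part in each result was not tested beyond a rescaling with ribosomal protein and mitochondrial genes removed. T cell markers (Cd3e, Cd3g, Cd4 and Trac) were present in every library. Il17f, a cytokine gene of TH17 cells, averaged 0.41 ± 0.16 TPM in Treg cells with Srci1, 0.407 ± 0.371 in Treg cells with DMSO, 531 ± 18.1 in TH17 cells with Srci1, 19 ± 0.755 in the knockout and 2550 ± 111 in wild-type DMSO TH17 cells (SD, n = 3 each). Foxp3, which defines Treg cells, averaged 268, 130, 204, 205 and 11.7 TPM in the same groups, so the Srci1-treated and knockout cultures labelled TH17 were lower in Il17f and higher in Foxp3 transcript than wild-type DMSO TH17 cells. The other Treg markers did not all follow Foxp3. Il2ra, Ctla4 and Ikzf2 averaged 692, 410 and 0.343 TPM in wild-type DMSO TH17 cells and 372, 203 and 5.92 TPM in the knockout. With Srci1 in TH17 cells they averaged 1210, 390 and 1.65 TPM. In Treg cells the same markers averaged 727, 324 and 1.42 TPM with DMSO and 1070, 248 and 3.17 TPM with Srci1. Ctla4 was thus lower in both Treg groups than in wild-type DMSO TH17 cells. Stat3 averaged 34.2 ± 3.9 TPM in the knockout and 121 ± 18.3 TPM in wild-type DMSO TH17 cells.

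Srci1 raised most of the module in TH17 cells. With Srci1, 45 of 50 members were called higher than with DMSO and 0 lower, at a limma adjusted p under 0.05. Over all 12800 genes 33.8% were called higher and 7.08% lower. The members' median log2 fold change of TPM + 1 was 0.94, against a median of 0.21 over all tested genes, and this scale understates the change of low genes. In 45 members the 3 Srci1 libraries lay above the 3 DMSO libraries, against 39.6% of tested genes. By role, all 7 CDK1 and cyclin genes, all 8 Aurora and Polo genes and all 5 midzone genes rose, with 7 of 8 checkpoint genes, 7 of 8 kinesins, 5 of 7 centromere genes and 6 of 7 chromosome structure genes. Under median-of-ratios scaling, which sets the median of all genes near 0, 42 members were higher and 0 lower with a median of 0.70, while the share of higher calls over all genes was 50% in place of 82.7%. Red blood cell markers (Hba-a1, Hbb-bs and Alas2) summed to 3.42 to 5.23 TPM with Srci1, with 1 of 3 at 1 TPM or more, and 0 to 0.97 TPM with DMSO, with 0 of 3, and their part in the result was not tested.

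Loss of STAT3 was likewise accompanied by higher levels. Between the knockout and wild type, both as DMSO TH17 cells, 44 members were higher and 1 was lower (limma adjusted p under 0.05), against 30.9% and 18.9% of all tested genes. The median was 0.68 for the members and 0.13 for all genes. The libraries of both genotypes did not overlap for 39 members with higher values in the knockout, against 32.5% of tested genes, and for 1 with lower values, against 18.9%. Without replicate 3 of the wild-type DMSO TH17 cells 40 members were higher and 2 lower, and without replicate 2 of the knockout 37 were higher and 1 lower. A model of only the compared groups gave 36 higher and 1 lower. Median-of-ratios scaling gave 40 higher and 2 lower with a median of 0.54, and 49.5% of calls over all genes were higher in place of 62.1%. Markers of other cells also stood higher in the knockout: Cd79a and Cd79b, which encode parts of the B cell receptor, averaged 3.15 ± 0.29 and 8.1 ± 0.916 TPM in the knockout and 0.247 ± 0.0723 and 0.25 ± 0.106 TPM in wild type (SD, n = 3 each). Myeloid markers summed to 2.72 to 3.84 TPM in the knockout and 0.1 to 0.28 TPM in wild type, and CD8 T and NK cell markers to 11.2 to 14.8 TPM in the knockout and 6.61 to 7.76 TPM in wild type, with Ncr1 at 0 in every library. Their part in the members' levels was not tested.

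In Treg cells Srci1 raised 41 members and lowered 0 (limma adjusted p under 0.05), against 17.1% and 10% of all tested genes. The members' median was 0.56 and that of all genes 0.11. All 3 Srci1 libraries lay above all 3 DMSO libraries for 48 members, against 34.4% of tested genes. Leaving out 1 Treg library at a time gave 34 to 37 members called higher. Median-of-ratios scaling gave 36 higher and 0 lower with a median of 0.44, and 43.5% of calls over all genes were higher in place of 63.0%. Rescaling with ribosomal protein and mitochondrial genes removed also gave 36 higher and 0 lower, with a median of 0.51. The calls for Bub1, Bub3, Ube2c, Cenpa and Spc24 ended under that rescaling. Red blood cell markers summed to 16.7 to 28.5 TPM with Srci1 and 1.29 to 3.4 TPM with DMSO, CD8 T and NK cell markers to 4.95 to 6.17 TPM with Srci1 and 4.2 to 4.9 TPM with DMSO, and their part in the result was not tested.

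Treg cells stood above TH17 cells in DMSO for nearly the whole module. Of the members 47 were higher in Treg cells and 0 lower (limma adjusted p under 0.05), against 32.3% and 12.5% of all tested genes, with a median of 0.98 for the members and 0.18 for all genes. The groups did not overlap for 46 members, against 38.1% of tested genes. Median-of-ratios scaling gave 45 higher and 0 lower with a median of 0.77, and 48.9% of calls over all genes were higher in place of 72.0%. Red blood cell markers summed to 1.29 to 3.4 TPM in Treg cells and 0 to 0.97 TPM in TH17 cells. B cell markers summed to 1.24 to 3.38 TPM against 0.62 to 0.86 TPM, and myeloid markers to 0.3 to 1.17 TPM against 0.1 to 0.28 TPM. No gene of these B cell and myeloid lists averaged 1 TPM or more in either group. Adgre1, a myeloid marker, ranged from 0 to 0.83 TPM among the Treg libraries. CD8 T and NK cell markers summed to 4.2 to 4.9 TPM in Treg cells and 6.61 to 7.76 TPM in TH17 cells. Most of that sum was Cd8b1, with means of 4.33 TPM in Treg and 7.23 TPM in TH17 cells. Cd8a went the other way, with 0.24 and 0.0167 TPM. The part of these markers in the members' levels was not tested. The contrasts of Srci1-treated TH17 cells, of the knockout and of DMSO Treg cells all use the same 3 wild-type DMSO TH17 libraries, so their values are not independent of each other.

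**Figure D3:**
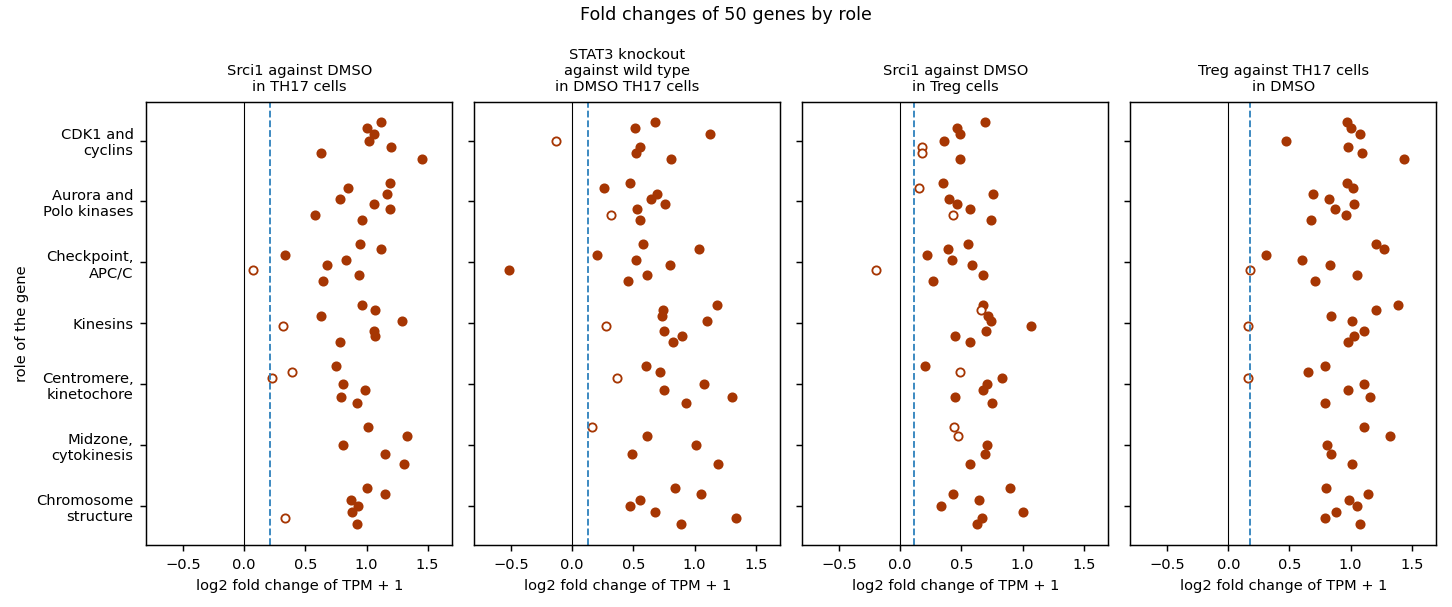
Log2 fold change of TPM + 1 of the 50 members by role in 4 comparisons, 1 point per gene. Filled points passed an adjusted p under 0.05, open points did not, the solid line is 0 and the dashed line is the median of all tested genes. All points but Pttg1 and Cdc25b in the knockout and Pttg1 in Srci1-treated Treg cells lie right of 0.

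CDK1, its cyclins and their regulators come first in the pathway (gene coordinates below are those of GENCODE M21 on GRCm38). Cdk1 (ENSMUSG00000019942.13, chr10:69335146-69352938, minus strand), the kinase that drives entry into mitosis, had 376, 337 and 357 TPM in Treg cells with Srci1, against 314, 313 and 319 TPM in Treg cells with DMSO. In TH17 cultures Cdk1 had 255, 215 and 217 TPM with Srci1 and 216, 204 and 218 TPM in the STAT3 knockout, against 150.2, 159 and 134 TPM in wild-type cells with DMSO. Wild-type DMSO TH17 libraries were lowest without overlap, and Treg libraries with DMSO already lay above every TH17 library. For Cdk1 the log2 fold changes (SE 0.0752 each) were 0.63 with Srci1 in TH17 cells (limma adjusted p = 2.7e-05), 0.52 in the knockout (5.06e-05), 0.18 with Srci1 in Treg cells (0.0997) and 1.09 for Treg against TH17 cells in DMSO (5.21e-08). The Treg change of Cdk1 was called in a model of the 2 Treg groups alone (limma adjusted p = 0.0291). Ccnb1 (ENSMUSG00000041431.16, chr13:100778650-100786570, minus strand), the B-type cyclin that activates CDK1, had 157, 166 and 156 TPM in Treg cells with Srci1, against 116, 113 and 119 TPM in Treg cells with DMSO. Its values in TH17 cultures were 127, 107 and 117 TPM with Srci1 and 85, 86.1 and 78 TPM in the STAT3 knockout, against 63.5, 60.5 and 50.2 TPM in wild-type cells with DMSO. All groups compared were separate for Ccnb1, and Srci1-treated TH17 libraries overlapped Treg libraries with DMSO. For Ccnb1 the log2 fold changes (SE 0.0854 each) were 1.00 with Srci1 in TH17 cells (limma adjusted p = 1.27e-06), 0.51 in the knockout (0.000185), 0.46 with Srci1 in Treg cells (0.00145) and 1.00 for Treg against TH17 cells in DMSO (5.16e-07). Ccnb2, a second B-type cyclin, was 2.11-fold higher with Srci1 in TH17 cells and 2.21-fold higher in the knockout by mean TPM, and Ccna2, the A-type cyclin of S and G2 phase, 2.18-fold and 1.6-fold higher.

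Foxm1 (ENSMUSG00000001517.14, chr6:128362967-128376146, plus strand), the transcription factor that activates many genes of this set, had 75, 83.7 and 86.3 TPM in Treg cells with Srci1, against 59.7, 58.1 and 55.5 TPM in Treg cells with DMSO. In TH17 cultures Foxm1 had 63, 54 and 57.3 TPM with Srci1 and 34.9, 40.6 and 36 TPM in the STAT3 knockout, against 25.1, 22.4 and 15.7 TPM in wild-type cells with DMSO. The groups of each comparison did not overlap, and wild-type DMSO TH17 replicate 3 was the lowest of all libraries. For Foxm1 the log2 fold changes (SE 0.132 each) were 1.45 with Srci1 in TH17 cells (limma adjusted p = 2.46e-06), 0.81 in the knockout (0.000156), 0.49 with Srci1 in Treg cells (0.0145) and 1.44 for Treg against TH17 cells in DMSO (1.05e-06), and those in TH17 cells with Srci1 and in Treg against TH17 cells were the largest of any member. Its call in Treg cells ended without Srci1-treated Treg replicate 3 (0.45, limma adjusted p = 0.0555). Cdc25b (ENSMUSG00000027330.16, chr2:131186949-131198497, plus strand), a phosphatase that removes the inhibitory phosphates from CDK1, was not called higher in the knockout, with 106, 101 and 99 TPM with Srci1 and 47.9, 46.4 and 42.6 TPM in the STAT3 knockout, against 53.4, 53.5 and 43.4 TPM in wild-type cells with DMSO among TH17 cultures. Knockout and wild-type libraries overlapped for Cdc25b, while the Srci1 libraries stood above both. Cdc25b changed by 1.02 (SE 0.0828, limma adjusted p = 8.13e-07) with Srci1 in TH17 cells, and the difference of -0.13 (SE 0.0828, limma adjusted p = 0.227) in the knockout was not called. Without wild-type DMSO TH17 replicate 3 Cdc25b was called lower in the knockout (-0.22, limma adjusted p = 0.016), as it was under median-of-ratios scaling (-0.27, 0.00276) and quantile normalization (-0.19, 0.0194). Cdc25c, the related phosphatase, averaged 19.2 ± 0.796 TPM in Treg cells with Srci1, 17 ± 3.12 TPM in Treg cells with DMSO, 19.7 ± 1.56 TPM in TH17 cells with Srci1, 12.1 ± 0.487 TPM in the knockout and 8.0 ± 0.338 TPM in wild-type DMSO TH17 cells (SD, n = 3 each).

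**Figure D4:**
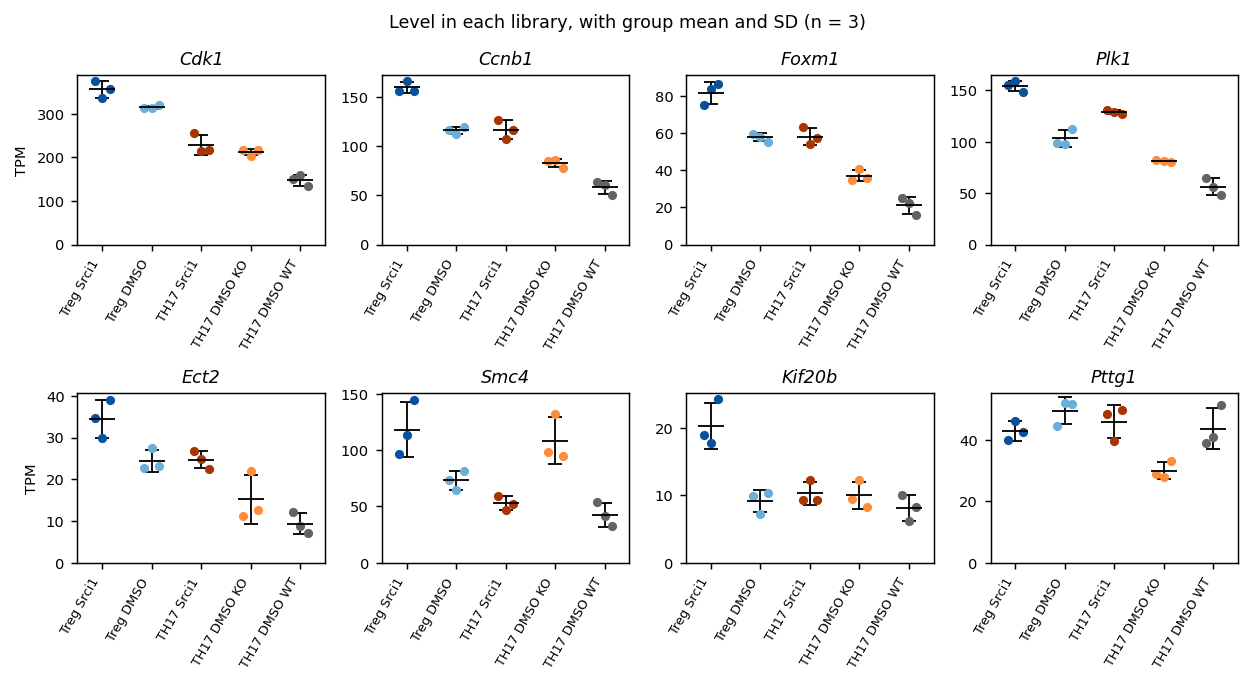
TPM of 8 members in each library, with points for libraries, long bars for group means and error bars for SD (n = 3), each panel starting at 0. Cdk1, Ccnb1, Foxm1, Plk1 and Ect2 are lowest in wild-type DMSO TH17 cells by group mean, Smc4 is high in the knockout, Kif20b stands out in Srci1-treated Treg cells and Pttg1 is lowest in the knockout.

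Aurora and Polo kinases and their partners build and police the spindle. Aurka (ENSMUSG00000027496.15, chr2:172356190-172370535, minus strand), the centrosomal Aurora kinase, had 99.8, 110.1 and 97.3 TPM in Treg cells with Srci1, against 80.2, 79.4 and 80.3 TPM in Treg cells with DMSO. In TH17 cultures Aurka had 97.4, 89 and 94 TPM with Srci1 and 59.4, 55 and 54.3 TPM in the STAT3 knockout, against 42, 39.9 and 39.3 TPM in wild-type cells with DMSO. The groups did not overlap in any of these pairs, and the Srci1 libraries of TH17 cells lay well above the knockout. For Aurka the log2 fold changes (SE 0.0634 each) were 1.19 with Srci1 in TH17 cells (limma adjusted p = 2.19e-08), 0.47 in the knockout (3.08e-05), 0.35 with Srci1 in Treg cells (0.00112) and 0.97 for Treg against TH17 cells in DMSO (3.08e-08). Tpx2, which activates Aurora A on microtubules, averaged 114 ± 3.96 TPM in Treg cells with Srci1, 67.8 ± 2.53 TPM in Treg cells with DMSO, 82.9 ± 7.55 TPM in TH17 cells with Srci1, 61.7 ± 4.06 TPM in the knockout and 42.1 ± 4.91 TPM in wild-type DMSO TH17 cells (SD, n = 3 each).

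Aurkb (ENSMUSG00000020897.12, chr11:69045647-69051664, plus strand), the kinase of the chromosomal passenger complex, had 150.0, 152 and 154 TPM in Treg cells with Srci1, against 142, 135 and 133 TPM in Treg cells with DMSO. In TH17 cultures Aurkb had 122, 119 and 124 TPM with Srci1 and 88.2, 78 and 75.2 TPM in the STAT3 knockout, against 68.1, 66.6 and 66 TPM in wild-type cells with DMSO. The rise in the knockout was small and that with Srci1 in TH17 cells larger, both without overlap. For Aurkb the log2 fold changes (SE 0.0595 each) were 0.85 with Srci1 in TH17 cells (limma adjusted p = 2.24e-07), 0.26 in the knockout (0.00237), 0.15 with Srci1 in Treg cells (0.0714) and 1.02 for Treg against TH17 cells in DMSO (1.01e-08). In a model of the 2 Treg groups alone the Treg change of Aurkb was called (limma adjusted p = 0.0208). The knockout call for Aurkb ended under median-of-ratios scaling (0.12, limma adjusted p = 0.22). Its partners Birc5 (survivin), Incenp and Cdca8 (borealin) were called higher in each of these 4 comparisons. Birc5 averaged 303 ± 14.9 TPM in Treg cells with Srci1, 178 ± 4.26 TPM in Treg cells with DMSO, 249 ± 4.03 TPM in TH17 cells with Srci1, 178 ± 9.27 TPM in the knockout and 110.0 ± 10.5 TPM in wild-type DMSO TH17 cells (SD, n = 3 each).

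Plk1 (ENSMUSG00000030867.7, chr7:122159439-122169873, plus strand), the main Polo kinase of mitosis, had 155, 159 and 149 TPM in Treg cells with Srci1, against 99.2, 98.3 and 113 TPM in Treg cells with DMSO. In TH17 cultures Plk1 had 131, 129 and 127 TPM with Srci1 and 82.5, 81 and 80.2 TPM in the STAT3 knockout, against 64.5, 56.3 and 48.1 TPM in wild-type cells with DMSO. All compared groups were separate, and the Srci1-treated TH17 libraries exceeded both the knockout and the DMSO Treg libraries. For Plk1 the log2 fold changes (SE 0.0871 each) were 1.19 with Srci1 in TH17 cells (limma adjusted p = 3.22e-07), 0.53 in the knockout (0.000167), 0.57 with Srci1 in Treg cells (0.000292) and 0.87 for Treg against TH17 cells in DMSO (2.33e-06). Plk4, which licenses centriole duplication rather than mitosis, averaged 33.7 ± 3.14 TPM in Treg cells with Srci1, 24.6 ± 2.05 TPM in Treg cells with DMSO, 18.7 ± 2.13 TPM in TH17 cells with Srci1, 15.8 ± 5.27 TPM in the knockout and 12.3 ± 2.35 TPM in wild-type DMSO TH17 cells (SD, n = 3 each). Its knockout difference was not called, and the knockout libraries had 12.7, 21.9 and 12.9 TPM. With Srci1 in TH17 cells Plk4 changed by 0.58 (SE 0.182, limma adjusted p = 0.0211), a call that ended without wild-type DMSO TH17 replicate 2 or 3 (limma adjusted p = 0.06 and 0.0849) or Srci1 TH17 replicate 1 (0.0825). The Plk4 call also ended under median-of-ratios scaling (0.33, limma adjusted p = 0.104) and quantile normalization (0.27, 0.177).

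Spindle checkpoint and APC/C genes had a median of 0.76 with Srci1 in TH17 cells, where 7 of 8 rose. Cdc20 (ENSMUSG00000006398.15, chr4:118432901-118437352, minus strand), the activator of the APC/C that the checkpoint holds in check, had 227, 238 and 239 TPM in Treg cells with Srci1, against 172, 174 and 179 TPM in Treg cells with DMSO. In TH17 cultures Cdc20 had 204, 211 and 202 TPM with Srci1 and 166, 165 and 164 TPM in the STAT3 knockout, against 116, 119 and 111 TPM in wild-type cells with DMSO. Replicates lay close together and no compared groups overlapped. For Cdc20 the log2 fold changes (SE 0.0462 each) were 0.83 with Srci1 in TH17 cells (limma adjusted p = 2.78e-08), 0.52 in the knockout (5.02e-07), 0.42 with Srci1 in Treg cells (1.77e-05) and 0.60 for Treg against TH17 cells in DMSO (1.74e-07). Ube2c, the ubiquitin-conjugating enzyme that works with the APC/C, was the most abundant member, with a mean of 472 TPM over the 15 libraries. It averaged 617 ± 19.8 TPM in Treg cells with Srci1, 512 ± 16.1 TPM in Treg cells with DMSO, 487 ± 22.4 TPM in TH17 cells with Srci1, 430.0 ± 32.7 TPM in the knockout and 314 ± 42.1 TPM in wild-type DMSO TH17 cells (SD, n = 3 each). Mad2l1, a checkpoint protein that binds CDC20, averaged 120.0 ± 2.16 TPM in Treg cells with Srci1, 79.6 ± 4.51 TPM in Treg cells with DMSO, 71.8 ± 7.43 TPM in TH17 cells with Srci1, 77.8 ± 3.60 TPM in the knockout and 44.3 ± 4.09 TPM in wild-type DMSO TH17 cells (SD, n = 3 each), and its knockout change of 0.80 (limma adjusted p = 2.18e-06) stood beside a change of 0.68 with Srci1 (limma adjusted p = 3.05e-05). Bub1b, the checkpoint protein BUBR1, changed by 1.12 (SE 0.111, limma adjusted p = 5.34e-06) with Srci1 in TH17 cells and by 1.04 (SE 0.111, limma adjusted p = 3.02e-06) in the knockout. Bub1, a checkpoint kinase at the kinetochore, averaged 20.6 ± 1.55 TPM with Srci1 and 10.6 ± 4.09 TPM with DMSO in wild-type TH17 cells (SD, n = 3 each, limma adjusted p = 0.00137). Bub3, which brings both to kinetochores, had the smallest fold among called members with Srci1 in TH17 cells, 0.33 (SE 0.0622, limma adjusted p = 0.000963). That call ended under median-of-ratios scaling (0.06, limma adjusted p = 0.669) and quantile normalization (0.15, 0.113).

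Pttg1 (ENSMUSG00000020415.16, chr11:43420250-43426251, minus strand) is the exception in the set. Securin transcript was 39.8, 46.2 and 42.6 TPM in Treg cells with Srci1, against 44.4, 52.1 and 51.7 TPM in Treg cells with DMSO. In TH17 cultures Pttg1 had 48.3, 39.7 and 49.8 TPM with Srci1 and 28.8, 27.9 and 33 TPM in the STAT3 knockout, against 38.9, 40.8 and 51.3 TPM in wild-type cells with DMSO. The knockout libraries lay below all wild-type libraries, and the other groups overlapped. Pttg1 fell by 0.52 on the log2 scale in the knockout (SE 0.119, limma adjusted p = 0.00221). It was not called with Srci1 in TH17 cells (0.07, limma adjusted p = 0.652), with Srci1 in Treg cells (-0.20, 0.235) or in Treg against TH17 cells (0.18, 0.238).

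Kinesins are the motors of the spindle, and 7 of 8 were called higher in each of the 4 comparisons. Kif20b was the one not called in the 3 that involve wild-type DMSO TH17 cells, and Kif15 the one not called with Srci1 in Treg cells. The knockout call of Kif15 ended without knockout replicate 1 or 2 (limma adjusted p = 0.0674 and 0.171) or wild-type DMSO replicate 2 or 3 (0.0818 and 0.115). It also ended under median-of-ratios scaling (limma adjusted p = 0.0609), quantile normalization (0.0705), no filter (0.0825) and the replicate block (0.0613). Kif11 (ENSMUSG00000012443.4, chr19:37376403-37421859, plus strand), the motor that pushes the spindle poles apart, had 77.4, 83 and 90.0 TPM in Treg cells with Srci1, against 53.2, 48.9 and 53.2 TPM in Treg cells with DMSO. Its values in TH17 cultures were 43, 34 and 37.8 TPM with Srci1 and 39, 53.9 and 41.6 TPM in the STAT3 knockout, against 23.8, 18.6 and 15.7 TPM in wild-type cells with DMSO. The compared groups were separate, and knockout replicate 2 was the highest of the knockout. For Kif11 the log2 fold changes (SE 0.144 each) were 0.96 with Srci1 in TH17 cells (limma adjusted p = 0.000176), 1.18 in the knockout (1.14e-05), 0.68 with Srci1 in Treg cells (0.00351) and 1.39 for Treg against TH17 cells in DMSO (3.23e-06). Kif2c, which depolymerises microtubules to correct attachments, averaged 56.4 ± 3.95 TPM in Treg cells with Srci1, 41 ± 0.482 TPM in Treg cells with DMSO, 42.2 ± 1.39 TPM in TH17 cells with Srci1, 37.4 ± 2.34 TPM in the knockout and 19.6 ± 2.04 TPM in wild-type DMSO TH17 cells (SD, n = 3 each). Kif20a, a motor of the midzone, changed by 1.29 (SE 0.0844, limma adjusted p = 1.26e-07) with Srci1 in TH17 cells and by 1.10 (SE 0.0844, limma adjusted p = 1.03e-07) in the knockout.

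Kif20b (ENSMUSG00000024795.11, chr19:34922361-34975745, plus strand), a midzone motor needed for cytokinesis, had 19, 17.8 and 24.3 TPM in Treg cells with Srci1, against 9.85, 7.27 and 10.4 TPM in Treg cells with DMSO. In TH17 cultures Kif20b had 9.33, 12.3 and 9.28 TPM with Srci1 and 9.49, 12.3 and 8.35 TPM in the STAT3 knockout, against 10.0, 6.17 and 8.25 TPM in wild-type cells with DMSO. The Srci1-treated Treg libraries were high and the other 12 libraries overlapped. For Kif20b the log2 fold changes (SE 0.193 each) were 0.32 with Srci1 in TH17 cells (limma adjusted p = 0.211), 0.28 in the knockout (0.252), 1.07 with Srci1 in Treg cells (0.00108) and 0.16 for Treg against TH17 cells in DMSO (0.529), and that with Srci1 in Treg cells was the largest of any member there.

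At the centromere, Cenpa (ENSMUSG00000029177.9, chr5:30666777-30674830, plus strand), the histone H3 variant that marks it, had 261, 272 and 279.9 TPM in Treg cells with Srci1, against 223, 253 and 234 TPM in Treg cells with DMSO. In TH17 cultures Cenpa had 215, 237 and 239.8 TPM with Srci1 and 209, 201 and 212 TPM in the STAT3 knockout, against 137, 130.0 and 142 TPM in wild-type cells with DMSO. The compared groups were separate, narrowly so in Treg cells. For Cenpa the log2 fold changes (SE 0.0612 each) were 0.75 with Srci1 in TH17 cells (limma adjusted p = 8.13e-07), 0.60 in the knockout (1.98e-06), 0.20 with Srci1 in Treg cells (0.0304) and 0.79 for Treg against TH17 cells in DMSO (1.82e-07). Its call in Treg cells ended without DMSO Treg replicate 1 or 3 (limma adjusted p = 0.127 and 0.0815), without Srci1 Treg replicate 2 or 3 (0.0754 and 0.104) and under median-of-ratios scaling (0.653). It also ended under quantile normalization (0.11, limma adjusted p = 0.268) and rescaling without ribosomal protein and mitochondrial genes (0.14, 0.139).

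The 4 subunits of the NDC80 complex, the microtubule grip of the kinetochore, are Ndc80, Nuf2, Spc24 and Spc25, and all were called higher in the 4 comparisons. Ndc80 (ENSMUSG00000024056.10, chr17:71496100-71526857, minus strand) had 46.1, 49.9 and 50.5 TPM in Treg cells with Srci1, against 28, 28.2 and 31.9 TPM in Treg cells with DMSO. Its values in TH17 cultures were 24.8, 23.8 and 22.6 TPM with Srci1 and 24.4, 33.3 and 29.2 TPM in the STAT3 knockout, against 15.8, 13.5 and 10.5 TPM in wild-type cells with DMSO. The compared groups did not overlap. For Ndc80 the log2 fold changes (SE 0.131 each) were 0.81 with Srci1 in TH17 cells (limma adjusted p = 0.000317), 1.08 in the knockout (1.1e-05), 0.71 with Srci1 in Treg cells (0.00127) and 1.11 for Treg against TH17 cells in DMSO (1.25e-05). In TH17 cultures Spc24 (ENSMUSG00000074476.6, chr9:21755442-21760303, minus strand) had 82.4, 104 and 88.2 TPM with Srci1 and 124, 108 and 169 TPM in the STAT3 knockout, against 51.9, 55.6 and 49.7 TPM in wild-type cells with DMSO. Knockout libraries lay above both other groups of TH17 cultures, with replicate 3 the highest. With Srci1 in Treg cells the Spc24 change of 0.45 (limma adjusted p = 0.0279) was lost without each of the 3 DMSO Treg libraries or without Srci1 Treg replicate 1 or 3 (limma adjusted p = 0.0592 to 0.0951). That call also ended under median-of-ratios scaling (0.32, limma adjusted p = 0.185) and quantile normalization (0.38, 0.062). With no filter (0.45, limma adjusted p = 0.0588) or rescaling without ribosomal protein and mitochondrial genes (0.40, 0.0641) it ended too. Spc24 changed by 1.31 (SE 0.138, limma adjusted p = 2.61e-06) in the knockout and by 0.79 (SE 0.138, limma adjusted p = 0.00058) with Srci1 in TH17 cells. Cenpe, a kinetochore motor, and Cenpf, a large kinetochore protein, were not called with Srci1 in TH17 cells (0.39 and 0.23, limma adjusted p = 0.226 and 0.302). Cenpf was not called in the knockout either (0.37, limma adjusted p = 0.0797), though it was without knockout replicate 1 (0.48, 0.0468) or wild-type DMSO replicate 3 (0.50, 0.0308), and with Srci1 in Treg cells it changed by 0.83 (SE 0.166, limma adjusted p = 0.00227).

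Midzone and cytokinesis genes showed the highest median of any role with Srci1 in TH17 cells, 1.15 against 0.94 for all members. Ect2 (ENSMUSG00000027699.19, chr3:27097222-27153878, minus strand), the RhoA activator that starts furrowing, had 34.6, 29.8 and 38.9 TPM in Treg cells with Srci1, against 22.7, 27.4 and 23.2 TPM in Treg cells with DMSO. In TH17 cultures Ect2 had 26.7, 24.9 and 22.5 TPM with Srci1 and 11.2, 22 and 12.6 TPM in the STAT3 knockout, against 12.1, 8.89 and 7.18 TPM in wild-type cells with DMSO. Srci1 libraries were separate from DMSO libraries, and knockout replicate 2 stood far above the other 2 knockout libraries, of which replicate 1 lay within the wild-type range. For Ect2 the log2 fold changes (SE 0.215 each) were 1.33 with Srci1 in TH17 cells (limma adjusted p = 0.00032), 0.61 in the knockout (0.0289), 0.47 with Srci1 in Treg cells (0.119) and 1.32 for Treg against TH17 cells in DMSO (0.000227). The knockout call ended without knockout replicate 2 (0.33, limma adjusted p = 0.143), without wild-type DMSO replicate 2 (0.0705) or 3 (0.12), and in a model of those 2 groups alone (0.13). It also ended under quantile normalization (0.43, limma adjusted p = 0.0569). In Treg cells Ect2 was called in a model of those 2 groups alone (limma adjusted p = 0.0277) and without knockout replicate 2 (0.0385). Racgap1, the partner of Kif23 in centralspindlin, averaged 175 ± 1.13 TPM in Treg cells with Srci1, 117 ± 3.43 TPM in Treg cells with DMSO, 145 ± 6.86 TPM in TH17 cells with Srci1, 133 ± 12.6 TPM in the knockout and 59.2 ± 15.3 TPM in wild-type DMSO TH17 cells (SD, n = 3 each). Prc1, which bundles midzone microtubules, changed by 1.15 (SE 0.134, limma adjusted p = 2.14e-05) with Srci1 in TH17 cells. Anln, the anillin scaffold of the contractile ring, rose with Srci1 in TH17 cells by 1.01 (SE 0.158, limma adjusted p = 0.00025) but differed by only 0.16 (SE 0.158, limma adjusted p = 0.442) in the knockout.

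Chromosome structure genes included the condensin subunits and the proliferation marker Mki67. Top2a (ENSMUSG00000020914.17, chr11:98992943-99024189, minus strand), the topoisomerase that untangles sister chromatids, had 432, 429.7 and 463 TPM in Treg cells with Srci1, against 286, 277 and 292 TPM in Treg cells with DMSO. In TH17 cultures Top2a had 289, 229 and 251 TPM with Srci1 and 213, 306 and 241 TPM in the STAT3 knockout, against 147, 139 and 118 TPM in wild-type cells with DMSO. The compared groups were separate, with replicate 2 highest in the knockout. For Top2a the log2 fold changes (SE 0.119 each) were 0.92 with Srci1 in TH17 cells (limma adjusted p = 5.45e-05), 0.89 in the knockout (2.67e-05), 0.63 with Srci1 in Treg cells (0.00157) and 1.08 for Treg against TH17 cells in DMSO (6.44e-06). Mki67 (ENSMUSG00000031004.8, chr7:135689784-135716361, minus strand), which coats mitotic chromosomes, had 90.2, 95.2 and 130.0 TPM in Treg cells with Srci1, against 54.2, 49.9 and 61.9 TPM in Treg cells with DMSO. Its values in TH17 cultures were 65, 61.3 and 64.9 TPM with Srci1 and 45.4, 70.4 and 57.2 TPM in the STAT3 knockout, against 46.3, 33 and 20.0 TPM in wild-type cells with DMSO. Knockout and wild-type libraries overlapped, and wild-type replicate 3 was the lowest. For Mki67 the log2 fold changes (SE 0.238 each) were 1.00 with Srci1 in TH17 cells (limma adjusted p = 0.00457), 0.84 in the knockout (0.00959), 0.90 with Srci1 in Treg cells (0.013) and 0.80 for Treg against TH17 cells in DMSO (0.0148). Without wild-type DMSO TH17 replicate 3 the knockout change of Mki67 was 0.53 (limma adjusted p = 0.0392) and the Treg against TH17 change 0.49 (0.0647). The latter call also ended without DMSO Treg replicate 3 (limma adjusted p = 0.0547). In models of only the compared groups both the knockout call (limma adjusted p = 0.0649) and the Treg against TH17 call (0.0721) of Mki67 ended. The call with Srci1 in Treg cells ended without Srci1 Treg replicate 3 (0.74, limma adjusted p = 0.0619).

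Smc4 (ENSMUSG00000034349.14, chr3:69004738-69034623, plus strand), a core condensin subunit, had 96.7, 113 and 145 TPM in Treg cells with Srci1, against 73.2, 64.8 and 81.7 TPM in Treg cells with DMSO. In TH17 cultures Smc4 had 59.5, 47.1 and 51.9 TPM with Srci1 and 97.9, 132 and 95 TPM in the STAT3 knockout, against 53.8, 41.3 and 32.5 TPM in wild-type cells with DMSO. Knockout libraries were far above both wild-type groups, which overlapped each other. For Smc4 the log2 fold changes (SE 0.188 each) were 0.33 with Srci1 in TH17 cells (limma adjusted p = 0.181), 1.34 in the knockout (4e-05), 0.67 with Srci1 in Treg cells (0.0174) and 0.79 for Treg against TH17 cells in DMSO (0.00361), and that in the knockout was the largest of any member. Without wild-type DMSO TH17 replicate 1 the Srci1 change in TH17 cells was called (0.51, limma adjusted p = 0.0404), and the call in Treg cells ended without DMSO replicate 2 (0.0698) or Srci1 replicate 3 (0.0822) of that cell type. Its dimer partner Smc2 was called in the knockout (0.68, limma adjusted p = 0.0291), but not without knockout replicate 2 (0.137) or wild-type DMSO replicate 2 (0.0746) or 3 (0.135). That call also ended with no filter (limma adjusted p = 0.062) and in a model of only the compared groups (0.106). Smc2 averaged 58 ± 8.69 TPM in Treg cells with Srci1, 28.4 ± 3.33 TPM in Treg cells with DMSO, 28.5 ± 5.89 TPM in TH17 cells with Srci1, 25.1 ± 7.25 TPM in the knockout and 15.5 ± 5.74 TPM in wild-type DMSO TH17 cells (SD, n = 3 each). The Smc2 call with Srci1 in TH17 cells ended without wild-type DMSO replicate 3 (0.65, limma adjusted p = 0.0525). It also ended in a model of only the compared groups (0.88, limma adjusted p = 0.0584). The regulatory subunits of condensin I, Ncapd2, Ncapg and Ncaph, were called higher in all 4 comparisons. The knockout call for Ncapg ended without knockout replicate 2 (0.39, limma adjusted p = 0.0568) and in a model of only the compared groups (0.55, 0.054). The Treg call for Ncaph ended without DMSO Treg replicate 2 (limma adjusted p = 0.054) or 3 (0.0606) or Srci1 Treg replicate 2 (0.0867). Ncapd2 changed by 1.15 (SE 0.0816, limma adjusted p = 2.49e-07) with Srci1 in TH17 cells and by 1.05 (SE 0.0816, limma adjusted p = 1.18e-07) in the knockout, and Ncaph by 0.93 and 0.47 (limma adjusted p = 5.19e-06 and 0.000809).

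The Srci1 response of TH17 cells was compared directly with that of Treg cells by an interaction term. The TH17 response was larger for 21 members and smaller for 0 (limma adjusted p under 0.05), against 11.3% and 2.95% of all tested genes, with a median difference of 0.39 for the members and 0.13 for all genes. The 21 included all 7 CDK1 and cyclin genes and 6 of 8 Aurora and Polo genes, but 2 of 8 checkpoint genes, 2 of 8 kinesins, 1 of 7 centromere genes, 1 of 5 midzone genes and 2 of 7 chromosome structure genes. The difference between roles was not tested. Cdc25c differed by 1.01 (SE 0.158, limma adjusted p = 0.000751), Foxm1 by 0.96 (SE 0.187, limma adjusted p = 0.00387) and Aurka by 0.84 (SE 0.0897, limma adjusted p = 4.07e-05). In these genes the TH17 changes of 1.20, 1.45 and 1.19 stood against Treg changes of 0.18, 0.49 and 0.35.

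At the other end Kif20b differed by -0.76 (SE 0.273, limma adjusted p = 0.0842) and Cenpf by -0.61 (SE 0.235, limma adjusted p = 0.107), so that neither was called. Both were called lower without wild-type DMSO TH17 replicate 2 (-0.92 for Kif20b and -0.79 for Cenpf, limma adjusted p = 0.039 and 0.0249) and after quantile normalization (-0.95 and -0.80, 0.0265 and 0.0473), and Kif20b under median-of-ratios scaling (-0.88, 0.0384). Of the 21 calls, 14 held in all 23 alternatives tried. Under median-of-ratios scaling the calls for Cdk1 (limma adjusted p = 0.0954), Birc5 (0.298), Cdca8 (0.26), Cdc20 (0.0653) and Cenpa (0.0635) ended, leaving 16 members higher and 1 lower. Scaling also changed the split over all genes, where 61.9% of calls were higher in place of 79.2%. The Ccna2 call ended (limma adjusted p = 0.0501 to 0.0614) without DMSO TH17 replicate 2, Srci1 TH17 replicate 1 or 3, DMSO Treg replicate 1, or Srci1 Treg replicate 1 or 3. It also ended under quantile normalization (0.28, limma adjusted p = 0.0825). The Racgap1 call ended (limma adjusted p = 0.0509 to 0.0551) without Srci1 TH17 replicate 1 or 2, DMSO Treg replicate 1 or 2, or Srci1 Treg replicate 1. Across the 50 members the difference had a Spearman correlation of -0.431 with the length of the longest annotated transcript, against 0.197 over all tested genes with a length. For the change with Srci1 in Treg cells the same correlation was 0.439 among members and 0.112 over all genes, and in TH17 cells -0.185 and 0.299. These are descriptions across genes measured in the same libraries.

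**Figure D5:**
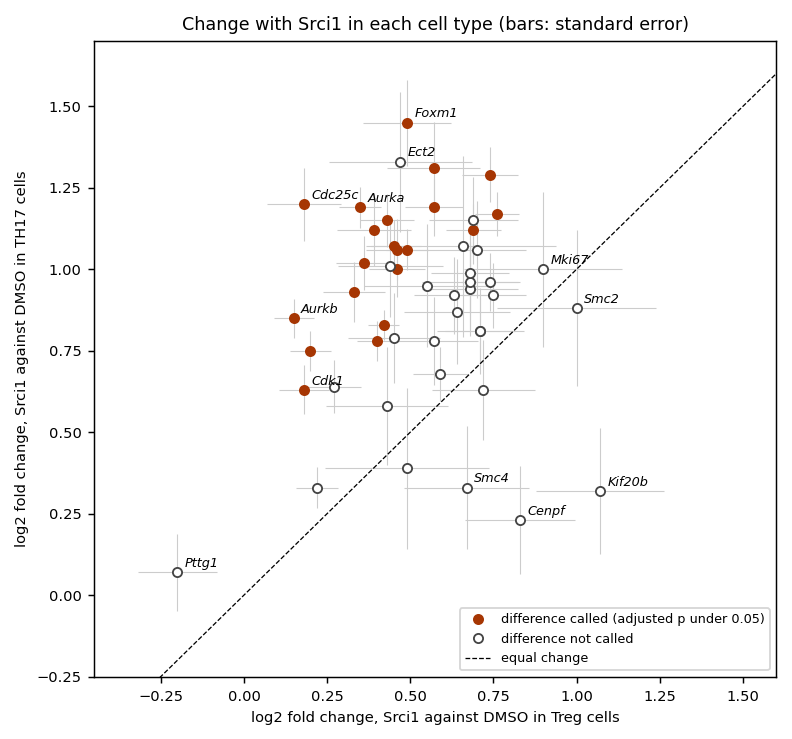
Log2 fold change of TPM + 1 with Srci1 in TH17 cells (vertical axis) against that in Treg cells (horizontal axis) for the 50 members, with standard errors as grey bars, the line of equal change dashed, and filled points where the difference passed an adjusted p under 0.05. The 21 filled points lie above the line, and Kif20b, Cenpf and Smc4 below it are open.

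Compound and gene loss were set side by side by comparing Srci1-treated wild-type TH17 cells directly with DMSO-treated knockout TH17 cells. With Srci1, 17 members were higher than in the knockout, 2 were lower and 31 were not called (limma adjusted p under 0.05), against 30.6% higher and 18.4% lower over all tested genes. The share higher among members was thus near the background. The members' median was 0.19 and that of all genes 0.11. Libraries did not overlap for 24 members with higher values in Srci1-treated cells, against 34.8% of tested genes, and for 2 with lower values, against 21.4%. Scaling moved this balance: 17 were higher and 6 lower under median-of-ratios scaling, 16 and 7 after quantile normalization, and 16 and 6 when TPM were rescaled with ribosomal protein and mitochondrial genes removed. Of the calls on members 73.9% were higher under median-of-ratios scaling in place of 89.5%, and over all genes 50.8% in place of 62.4%. Without knockout replicate 1, 4 members were lower. Cd79b averaged 0.497 ± 0.172 TPM in Srci1-treated cells and 8.1 ± 0.916 TPM in the knockout (SD, n = 3 each). Red blood cell markers summed to 3.42 to 5.23 TPM with Srci1 and 0 to 0.87 TPM in the knockout, myeloid markers to 0.23 to 0.29 TPM with Srci1 and 2.72 to 3.84 TPM in the knockout, and CD8 T and NK cell markers to 6.73 to 10.5 TPM with Srci1 and 11.2 to 14.8 TPM in the knockout. Their part in the result was not tested.

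Regulators of CDK1 and the Aurora kinases made up most of the higher calls, with 5 of 7 CDK1 and cyclin genes and 6 of 8 Aurora and Polo genes, and 3 of 5 midzone genes. Cdc25b was higher by 1.14 (SE 0.0828, limma adjusted p = 6e-08), Anln by 0.85 (SE 0.158, limma adjusted p = 0.000504), Aurka by 0.72 (SE 0.0634, limma adjusted p = 4.48e-07) and Plk1 by 0.66 (SE 0.0871, limma adjusted p = 2.57e-05). Pttg1, with 48.3, 39.7 and 49.8 TPM in Srci1-treated cells against 28.8, 27.9 and 33.0 TPM in the knockout, was higher by 0.60 (SE 0.119, limma adjusted p = 0.000876). No kinesin was called in either direction, and the 8 changes ranged from -0.21 for Kif11 to 0.33 for Kif15. Only 2 members were called lower, a condensin gene and a kinetochore gene, against 18.4% of all tested genes. Smc4 fell by 1.01 on the log2 scale (SE 0.188, limma adjusted p = 0.000503) and Spc24 by 0.52 (SE 0.138, 0.00621). The Spc24 value was -0.34 without knockout replicate 3 (limma adjusted p = 0.0252). The Ect2 call (0.72, limma adjusted p = 0.0135) ended without knockout replicate 1 or 3 (0.0682 and 0.0576). Under median-of-ratios scaling Ndc80 (-0.39, limma adjusted p = 0.00363), Kif11 (-0.34, 0.0133) and Mad2l1 (-0.25, 0.0124) were lower as well.

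Further cell cycle lists were counted beside the share of all tested genes called higher, which was 33.8% with Srci1 in TH17 cells, 30.9% in the knockout, 17.1% with Srci1 in Treg cells and 32.3% in Treg against TH17 cells. Of 44 further mitosis genes, 42 rose with Srci1 in TH17 cells, 33 in the knockout, 31 with Srci1 in Treg cells and 41 in Treg against TH17 cells, with 0 lower in each. Kif22, a chromosome arm motor, averaged 103 ± 4.28 TPM with Srci1, 70.6 ± 1.1 TPM in the knockout and 46.7 ± 1.39 TPM in wild-type DMSO TH17 cells (SD, n = 3 each). Nek2, a centrosome kinase, changed by 1.37 with Srci1 in TH17 cells and by 0.98 in the knockout (limma adjusted p = 1.05e-07 and 4.89e-07). Gtse1, a microtubule-binding protein, was 73.4 ± 3.57 TPM with Srci1 against 27.4 ± 2.4 TPM in the knockout, a log2 difference of 1.39 (limma adjusted p = 4.23e-09). Among 20 DNA replication genes, 20 rose with Srci1 in TH17 cells, 17 in the knockout, 14 with Srci1 in Treg cells and 18 in Treg against TH17 cells, with 0 lower. Rrm2, a ribonucleotide reductase subunit, averaged 245 ± 9.64 TPM with Srci1 and 146 ± 6.19 TPM in the knockout.

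Other subunits and regulators of the same complexes were listed apart, beside all tested genes, of which Srci1 raised 33.8% and lowered 7.08% in TH17 cells, and of which 30.9% were higher and 18.9% lower in the knockout. Of 17 APC/C core and co-factor genes, 11 rose with Srci1 in TH17 cells and 9 in the knockout, and of 13 cohesin and condensin II genes 7 and 5, with 0 lower. For cohesin and condensin II the knockout share, 38.5%, was near that of all genes. Among them Fbxo5, the APC/C inhibitor EMI1, changed by 0.89 with Srci1 in TH17 cells and 1.10 in the knockout (limma adjusted p = 0.000168 and 9.64e-06). Of 18 MuvB, B-MYB and E2F genes, 14 rose with Srci1 in TH17 cells and 0 fell, and in the knockout 10 rose and 2 fell. E2f2 changed by 1.33 and E2f8 by 1.42 with Srci1 in TH17 cells (limma adjusted p = 6.38e-07 and 4.33e-06), while E2f4 was -0.44 in the knockout (limma adjusted p = 0.000175). Of 9 tested G1 cyclins and kinases 3 were higher and 2 lower in the knockout, shares near those of all genes, and the lower pair was Cdk6 at -1.05 and Ccnd3 at -0.65 (limma adjusted p = 0.000323 and 4.21e-06).

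Among inhibitors of cyclin-dependent kinases, Cdkn1a and Cdkn2c went opposite ways in the knockout. Cdkn1a, which encodes p21, averaged 51.8 ± 3.6 TPM in Treg cells with Srci1, 123 ± 4.08 TPM in Treg cells with DMSO, 146 ± 2.37 TPM in TH17 cells with Srci1, 20.3 ± 1.41 TPM in the knockout and 143 ± 15.1 TPM in wild-type DMSO TH17 cells (SD, n = 3 each). It fell by 2.75 on the log2 scale in the knockout (limma adjusted p = 4.95e-12) and by 1.24 with Srci1 in Treg cells (limma adjusted p = 1.48e-07). In TH17 cells its means with Srci1 and with DMSO were close, and the Srci1 responses of TH17 and Treg cells differed by 1.27 (limma adjusted p = 9.99e-06). Cdkn2c, which encodes p18, rose by 0.95 with Srci1 in TH17 cells and by 1.38 in the knockout (limma adjusted p = 1.88e-05 and 1.41e-07). In the list of 7, 6 were tested, of which 4 rose with Srci1 in TH17 cells and 1 rose and 2 fell in the knockout, against 33.8% of all tested genes higher with Srci1 in TH17 cells and 30.9% higher and 18.9% lower in the knockout. The rise of Cdkn2d with Srci1 in TH17 cells (0.24, limma adjusted p = 0.0161) turned to -0.029 under median-of-ratios scaling.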

How the data were processed

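Poly(A) RNA of 15 libraries in 5 groups of 3 was measured by RNA-seq. The deposited values are TPM per Ensembl gene ID. The submitters' processing notes name STAR 2.7.9a, RSEM 1.3.3 and GRCm38; for annotation release, strand and filters the sources used here give nothing. Overlapping or antisense genes may therefore share reads. TPM keep no depth, so the depth of each library is unknown and no counting interval is given. Gene symbols and coordinates came from GENCODE M21 on GRCm38, where 55240 of the 55421 IDs have a record.

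Values were analysed as log2(TPM + 1) for 12800 genes, those that reached 1 TPM in 3 or more libraries. One limma 3.58.1 model (R 4.3.3, eBayes with an intensity trend) of 5 group means had 10 residual degrees of freedom, and 6 comparisons were drawn from it. P-values are two-sided and adjusted by Benjamini-Hochberg over all tested genes within a comparison, and a gene was called under 0.05. A p above that does not show that groups were alike. Tables and plots were made in Python 3.11.15 with pandas 2.3.3 and matplotlib 3.10.9.

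Alternatives were 23 in number: a pseudocount of 0.1, no filter, a 5 TPM filter, median-of-ratios scaling, quantile normalization, rescaling without 425 ribosomal protein and mitochondrial IDs, only the compared groups, the replicate number as a block, and each of the 15 libraries left out. Ribosomal protein IDs were taken as those whose symbol begins with Rpl or Rps and a digit, and mitochondrial IDs as those beginning with mt-. This rule leaves out Rplp and Rpsa symbols and takes in Rps6k symbols. It also set the ribosomal protein and mitochondrial shares of TPM given above. The members and gene lists were chosen with earlier results of these data known. Members named with values were the regulators and structural genes that represent each role, the 2 largest and 2 smallest changes per comparison, and those called against the majority; others that are named were chosen after their values were seen.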

Additional observations from a re-analysis of the deposited data

Results flagged for a closer look

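For 21 members the Srci1 response was larger in TH17 cells than in Treg cells by an interaction term (limma adjusted p under 0.05), given here as the TH17 minus Treg difference in log2 fold change of TPM + 1. Among CDK1, its cyclins and their regulators the difference was 0.45 for Cdk1, 0.43 for Ccna2, 0.54 for Ccnb1, 0.58 for Ccnb2, 0.66 for Cdc25b, 1.01 for Cdc25c and 0.96 for Foxm1. Among Aurora and Polo genes it was 0.84 for Aurka, 0.7 for Aurkb, 0.41 for Birc5, 0.59 for Incenp, 0.37 for Cdca8 and 0.62 for Plk1. Further differences were 0.73 for Bub1b, 0.41 for Cdc20, 0.55 for Kif20a, 0.63 for Kif2c, 0.56 for Cenpa, 0.74 for Racgap1, 0.72 for Ncapd2 and 0.6 for Ncaph.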

How the results depend on the processing

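Of the calls on members, 41 of 45 held in all 23 alternatives for Srci1 in TH17 cells, 34 of 45 for the STAT3 knockout, 31 of 41 for Srci1 in Treg cells, 44 of 47 for Treg against TH17 cells, 14 of 21 for the TH17 minus Treg difference and 17 of 19 for Srci1-treated against knockout cells. With 1 library left out, the members called higher numbered 43 to 46, 37 to 44, 34 to 44, 45 to 47, 19 to 25 and 15 to 21 in that order. Members called lower were 1 to 2 in the knockout, 0 to 2 in the TH17 minus Treg difference and 2 to 4 in Srci1-treated against knockout cells. Scaling that centres all genes moved counts: members called lower were 2 in the knockout under median-of-ratios and under quantile scaling, 1 and 2 in the difference, and 6 and 7 in Srci1-treated against knockout cells, with 6 when TPM were rescaled with ribosomal protein and mitochondrial genes removed. Over all genes, higher and lower calls with Srci1 in TH17 cells were 2115 and 2114 under median-of-ratios scaling and 2159 and 1973 after quantile normalization, and 2859 were higher with only the compared groups. For Treg against TH17 cells they were 2676 and 2798 under median-of-ratios scaling and 2710 and 2739 after quantile normalization. Higher calls with Srci1 in Treg cells numbered 1360 under median-of-ratios scaling, and lower calls for the difference 701 and, after quantile normalization, 827. Cdkn2d with Srci1 in TH17 cells turned to -0.029 under median-of-ratios scaling. The causes were not tested. Deviations from group means correlated at -0.171 to 0.128 over 30 pairs of libraries with the same number (median 0.001). For libraries with different numbers they correlated at -0.301 to 0.254 over 60 pairs (median -0.002). With 3 libraries a group and no pairing stated in the labels, this does not settle whether the numbers pair samples. With the replicate block 45, 43, 40, 46, 22 and 18 members were higher and 0, 1, 0, 0, 0 and 2 lower. Rescaled without ribosomal protein and mitochondrial genes, 45, 44, 36, 46, 21 and 16 were higher and 0, 1, 0, 0, 0 and 6 lower. Depth is unknown, and 3 libraries a group limit the precision.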
